A study of Mus musculus with 2 samples.

Results

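The genes described here are 10 carriers that bring amino acids across the plasma membrane, *Slc3a2*, *Slc7a5*, *Slc7a1*, *Slc7a2*, *Slc7a6*, *Slc7a7*, *Slc7a8*, *Slc1a5*, *Slc38a1* and *Slc38a2*, out of 18193 genes that the array names. They are a set of named carriers that supply the amino acids sensed by mTORC1. The rule used no measured value, but the set was drawn up with earlier results of these data known. Each was read at every probe set whose annotation gives that gene alone, which came to 21 probe sets. RNA was measured in RAW264.7 cells, mouse macrophages of an established line that RANKL turns into osteoclasts, after transfection with *Flcn* siRNA (*Flcn* knockdown cells) or with scramble siRNA (control cells). The medium was changed to MEMα with 10% FCS 24 hours after transfection in both cultures, and RNA was collected 48 hours later. Neither the labels nor the array methods name RANKL for these cultures. There was 1 Affymetrix Mouse Genome 430 2.0 array for each kind of cell, and without replicates no test was run.

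Cells take up essential amino acids through carriers of the SLC families. *Slc3a2* encodes the CD98 heavy chain, a glycoprotein that carries no substrate itself and brings a light chain to the cell surface through a disulfide bond. The light chains set the substrate: *Slc7a5* (LAT1) and *Slc7a8* (LAT2) exchange large neutral amino acids such as leucine, and *Slc7a6* and *Slc7a7*, the light chains of system y+L, export cationic amino acids such as arginine in exchange for neutral ones and sodium. *Slc7a1* and *Slc7a2* encode cationic carriers that take up arginine and lysine without a heavy chain. *Slc1a5* (ASCT2) exchanges glutamine and other neutral amino acids, and *Slc38a1* and *Slc38a2* take up glutamine and alanine together with sodium. Leucine, arginine and glutamine are signals for mTORC1 at the lysosome, where folliculin, the product of *Flcn*, acts on the Rag GTPases.

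*Flcn*, the siRNA target, had signals of 145 in *Flcn* knockdown cells and 209 in control cells at one probe set, and of 206 and 241 at another. *Gpnmb*, a known target of Tfe3, had 2500 in *Flcn* knockdown cells and 294 in control cells. Of the macrophage markers examined, 9 of 9 lay above the signal filter, with a summed signal of 23053 in *Flcn* knockdown cells and 23946 in control cells. The defining marker *Fcgr1* departed most from this small difference, with a log2 ratio of -1.44. *Ptprc* (-0.36) and *Itgam* (-0.23) were also lower. Of the 9 markers, 5 lay below 0 and 4 above, beside 48.1% of all genes above the filter that lay below 0. Markers of fibroblasts, epithelium, T cells, B cells and endothelium were near the background, with 2 of 19 just above the filter and summed signals per cell type of 5.70 to 41.6 in *Flcn* knockdown cells and 18.7 to 42.8 in control cells.

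Most carriers differed little between the arrays, and the 2 that passed 1.5-fold were the light chains of system y+L, in opposite directions. *Slc7a6* was 1.63-fold higher and *Slc7a7* was 1.72-fold lower in *Flcn* knockdown cells, while the other 7 carriers above the signal filter lay within 1.5-fold. The filter was a geometric mean signal of 13.2 over both arrays, set from the median signals, 13.6 in *Flcn* knockdown cells and 12.8 in control cells. *Slc7a2* lay under it at each of its 4 probe sets, so that 9 of the 10 carriers have a ratio. With 1 of 9 carriers higher by 1.5-fold or more and 1 of 9 lower, the shares are to be read against 5.85% of all 10285 genes above the filter that were higher and 5.52% that were lower. The median log2 ratio of the 9 carriers was -0.12, beside 0.013 over all genes above the filter, and 7 of 9 lay below 0, or 77.8%, beside 48.1% of all genes. The median size of the log2 ratio, whatever its sign, was 0.17 for the carriers and 0.21 for all genes. The excess of carriers below 0 depends in part on the choice of probe set. When all probe sets of a gene were averaged, 7 of 9 again lay below 0. With only probe sets whose names carry no suffix for probes that match several transcripts, 4 of 7 measured carriers lay below 0. *Slc7a7* and *Slc3a2* have no such probe set, and *Slc38a1* then lay above 0. A lower signal in such a culture can come from fewer cells that make the RNA or from less RNA per cell, and these cannot be told apart. Probe sets of the same gene gave log2 ratios whose SD had a median of 0.19 over 5034 genes. This spread is technical and does not stand in for replicates. Of the 9 carriers, 5 lay closer to 0 than this spread, beside 45.9% of all genes above the filter.

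**Figure D1:**
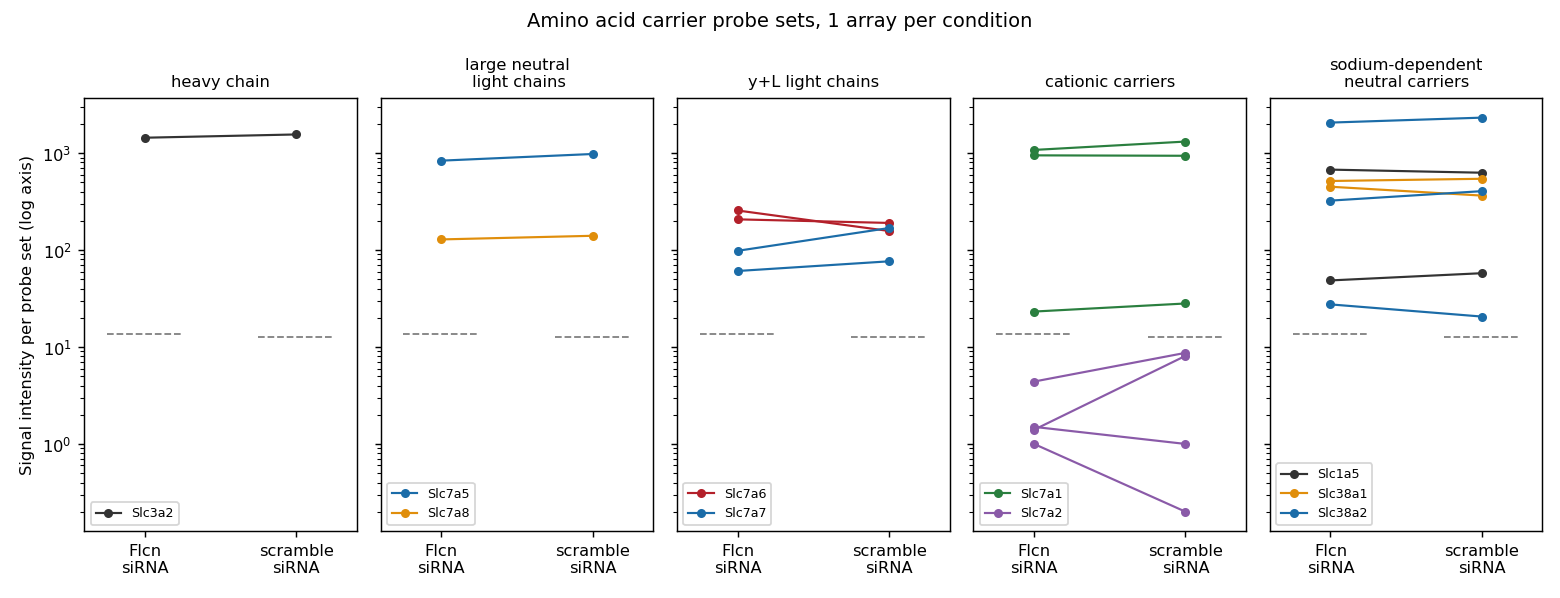
Signal intensity of each probe set of the 10 carriers (log axis), by role, in *Flcn* knockdown cells at the left and the scramble siRNA array at the right of each panel, with 1 line per probe set. Dashed lines mark the median signal of each array, 13.6 and 12.8. The *Slc7a6* lines descend from *Flcn* siRNA to scramble siRNA and those of *Slc7a7* ascend, while the *Slc7a2* lines stay under the dashed lines.

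The 250 bases before a start site of *Slc7a6* and of *Slc7a7* are shown because these were the carriers past 1.5-fold. They are RefSeq sequences of GRCm38.p6, from chr8:106168604-106168853 on the plus strand for *Slc7a6* and chr14:54417945-54418194 on the minus strand for *Slc7a7*. RefSeq lists 2 start windows for *Slc7a6* and 5 for *Slc7a7*, and the first listed is given. Capitals mark a match to TGATGNAA, the core of the response element that ATF4 binds with C/EBP factors.
Slc7a6: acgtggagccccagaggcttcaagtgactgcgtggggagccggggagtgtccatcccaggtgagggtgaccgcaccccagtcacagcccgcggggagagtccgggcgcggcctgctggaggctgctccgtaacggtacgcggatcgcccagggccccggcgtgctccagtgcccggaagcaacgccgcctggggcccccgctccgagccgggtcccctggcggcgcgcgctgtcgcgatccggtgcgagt
Slc7a7: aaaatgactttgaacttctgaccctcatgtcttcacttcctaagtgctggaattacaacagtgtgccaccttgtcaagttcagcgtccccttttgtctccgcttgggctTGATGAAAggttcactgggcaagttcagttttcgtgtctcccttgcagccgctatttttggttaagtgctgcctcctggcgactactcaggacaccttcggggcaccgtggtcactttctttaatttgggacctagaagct
A second match in *Slc7a7* begins 1 base before the start and runs past it, and is shown in a stretch from chr14:54417927-54417956 on the minus strand.
Slc7a7 start: gacctagaagcTGATGCAAcagcttccccg

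The *Slc7a6* stretch is rich in G and C, which make up 74.0% of its bases, against 48.8% in that of *Slc7a7*. At the other starts the share was 77.2% for *Slc7a6* and 49.2% to 63.2% for *Slc7a7*. Which start these cells use was not measured. Promoter windows of 250 bases before and 50 bases after a start were searched on both strands for TGATGNAA, for CACGTG, the E-box that Tfe3 and its relatives bind, and for TCATGTG, the M-box. None of these motifs contains another. RefSeq gave windows for 6 of the 10 carriers, *Slc3a2*, *Slc7a1*, *Slc7a6*, *Slc7a7*, *Slc7a8* and *Slc38a2*, and of these only *Slc7a7* held TGATGNAA, in 2 overlapping windows of its 5. The others had 1 or 2 windows each, and so fewer places for a match. That motif is in 3.97% of the 32851 promoter windows of all genes, a share per window and not per gene. Bases outside the windows were not searched, so a carrier without a match here may hold the motif elsewhere. CACGTG, which is in 7.15% of all windows, and TCATGTG, in 3.77%, were in none of the 12 windows of the carriers. A match describes the letters only and is no evidence of binding.

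*Slc3a2*, the heavy chain on which 4 of the other carriers depend, was nearly level between the arrays. Its only probe set gave a signal of 1441 in *Flcn* knockdown cells and 1557 in control cells, a log2 ratio of -0.11. The difference is smaller than the median spread between probe sets of a gene.

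*Slc7a5*, the leucine carrier LAT1, also had 1 probe set, with a signal of 836 in *Flcn* knockdown cells and 979 in control cells. Its log2 ratio was -0.23, or 1.17-fold lower, slightly more than the spread between probe sets. *Slc7a8*, LAT2, had 129 in *Flcn* knockdown cells and 140 in control cells, a log2 ratio of -0.12. Both large neutral light chains therefore lay slightly below 0, by less than 1.5-fold, as did their heavy chain.

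The light chains of system y+L stood apart from each other. *Slc7a6*, y+LAT2, had a signal of 256 in *Flcn* knockdown cells and 157 in control cells at its brighter probe set, a log2 ratio of 0.70. At its other probe set it had 207 in *Flcn* knockdown cells and 190 in control cells, a log2 ratio of 0.12 that is within the spread. Both probe sets were made from the same transcript sequence and were higher in *Flcn* knockdown cells, but they disagree on the size by 0.58 on the log2 scale. *Slc7a6* ranked 363rd from the highest among the 10285 genes.

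*Slc7a7*, y+LAT1, is the arginine exporter that is defective in human lysinuric protein intolerance. It had a signal of 98.2 in *Flcn* knockdown cells and 169 in control cells at the probe set used, a log2 ratio of -0.78. At its other probe set it had 60.8 in *Flcn* knockdown cells and 76.5 in control cells, a log2 ratio of -0.33. Both probe sets gave a lower signal after knockdown, by different amounts, and the gene ranked 258th from the lowest. Both probe sets carry an array suffix for probes that match more than one transcript. The log2 ratio of *Slc7a6* exceeded that of *Slc7a7* by 1.48 at the probe sets used, and by 0.45 to 1.48 over the 4 pairs of their probe sets. When all probe sets of a gene were averaged, *Slc7a6* had 0.41 and *Slc7a7* had -0.56, and neither passed 1.5-fold.

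**Figure D2:**
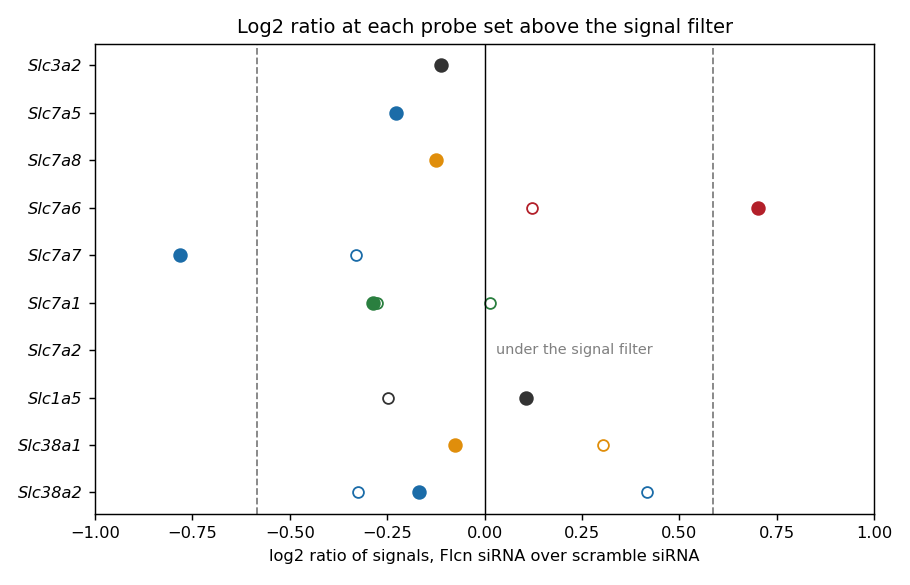
Log2 ratio (*Flcn* siRNA over scramble siRNA) at each probe set above the signal filter, by carrier. Filled points are the probe set used for the gene, open points its other probe sets, and dashed lines mark 1.5-fold. The probe sets of *Slc7a6* lie to the right of 0 and those of *Slc7a7* to the left, while those of *Slc7a1*, *Slc1a5*, *Slc38a1* and *Slc38a2* lie on both sides.

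Among the cationic carriers, *Slc7a1* (CAT1), the main arginine importer of many cell types, was slightly lower at 2 of 3 probe sets. Its brightest probe set had 1078 in *Flcn* knockdown cells and 1315 in control cells, a log2 ratio of -0.29. The next had 948 in *Flcn* knockdown cells and 938 in control cells, which is level. The third was weak, with 23.2 in *Flcn* knockdown cells and 28.1 in control cells.

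*Slc7a2* (CAT2) is the arginine carrier that macrophages raise on activation, when inducible nitric oxide synthase consumes arginine. Its probe sets had signals of 1.00 to 4.40 in *Flcn* knockdown cells and 0.20 to 8.70 in control cells, under the median of each array, and no ratio was taken from them. Whether the carrier differed between the cultures was therefore not detectable.

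The sodium-dependent carriers of glutamine and other neutral amino acids gave probe sets on both sides of 0. *Slc1a5*, ASCT2, had 675 in *Flcn* knockdown cells and 628 in control cells, a log2 ratio of 0.11. Its weaker probe set had 48.6 in *Flcn* knockdown cells and 57.7 in control cells, a log2 ratio of -0.25. No direction can be given for *Slc1a5*.

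*Slc38a1*, SNAT1, had 516 in *Flcn* knockdown cells and 543 in control cells at the probe set used, a log2 ratio of -0.08. This probe set has the suffix for shared probes. At its other probe set, which has no suffix, *Slc38a1* had 450 in *Flcn* knockdown cells and 365 in control cells, a log2 ratio of 0.30, so that its direction depends on the probe set.

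*Slc38a2*, SNAT2, is known to be induced when cells lack amino acids. It had 2064 in *Flcn* knockdown cells and 2321 in control cells, a log2 ratio of -0.17. A second probe set had 324 in *Flcn* knockdown cells and 405 in control cells, a log2 ratio of -0.32. The third, which was weak, had 27.5 in *Flcn* knockdown cells and 20.6 in control cells. *Slc38a2* was slightly lower at both brighter probe sets, by less than 1.5-fold.

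Of the 6 carriers with more than 1 probe set above the filter, 4 had probe sets on both sides of 0 and 2, *Slc7a6* and *Slc7a7*, had them on one side. Over all 17 probe sets of the carriers above the filter, 6 were higher and 11 were lower in *Flcn* knockdown cells, and 1 in each direction passed 1.5-fold. Shares over all probe sets of the array were not counted, so these counts cannot be set against the array as a whole. In the plot of ratio against signal, the carriers toward the bright end lie close to 0.

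**Figure D3:**
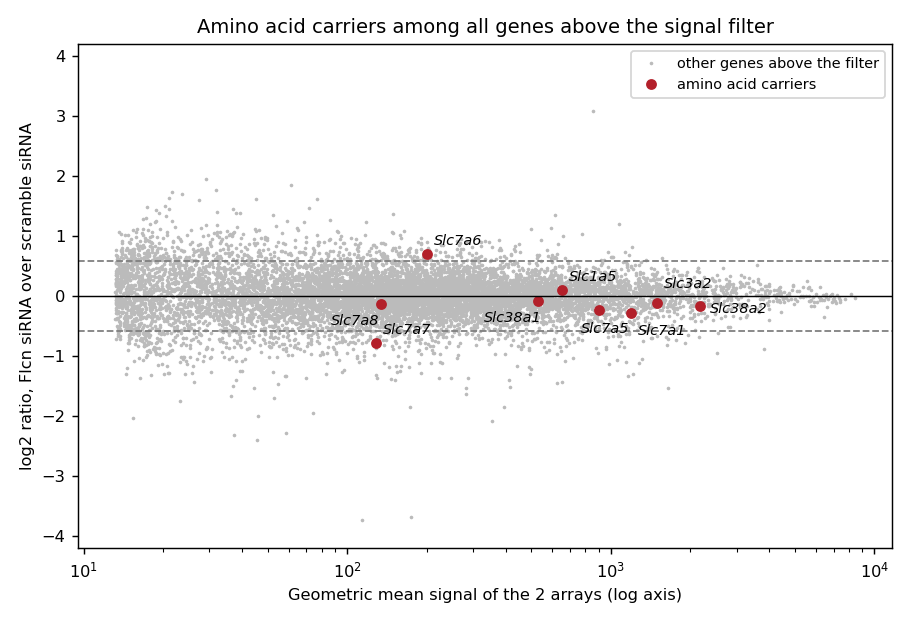
Log2 ratio, *Flcn* siRNA over scramble siRNA, against the geometric mean signal of both arrays (log axis) for each gene above the signal filter, with the 9 measured carriers in red and dashed lines at 1.5-fold. *Slc7a6*, at 0.70, lies above the upper dashed line, and *Slc7a7*, at -0.78, below the lower one.

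Scaling did not change which carriers passed 1.5-fold. When the arrays were scaled to equal median signals, which lowers each log2 ratio by 0.09, *Slc7a6* was again the carrier higher by 1.5-fold and *Slc7a7* the one lower, beside 4.06% and 7.85% of all genes. The share of higher genes among all those past 1.5-fold was then 34.1% in place of 51.5%. With quantile normalization the same carriers passed, beside 5.38% of genes that were higher and 5.95% that were lower.

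Other plasma membrane carriers of amino acids, 27 in number, were mostly too weak to measure, with 19 under the filter. Of the 8 above it, 3 lay above 0 and 5 below, beside 48.1% of all genes below, with a median log2 ratio of -0.06. *Slc43a1*, LAT3, another leucine carrier, was the 1 of 8 higher by 1.5-fold, beside 5.85% of all genes, with a weak signal of 20.5 in *Flcn* knockdown cells and 13.2 in control cells. It was under 1.5-fold with either other scaling. *Slc16a10*, a carrier of aromatic amino acids, had a log2 ratio of 0.33, with its probe sets from -0.21 to 0.33. *Slc7a11*, the cystine exchanger that also pairs with *Slc3a2*, had 106 in *Flcn* knockdown cells and 115 in control cells. *Slc1a4*, a neutral carrier related to *Slc1a5*, had a log2 ratio of -0.14, with its probe sets from -0.55 to 0.07. *Slc43a2*, LAT4, had 0.04 at the probe set used, but 0.75 at its other probe set, which is past 1.5-fold. The lowest was *Slc7a3*, whose signal of 11.1 in *Flcn* knockdown cells lay under the median, against 15.9 in control cells.

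Among 10 lysosomal carriers of amino acids and peptides, none of the 9 above the filter passed 1.5-fold at the probe set used. Of all genes above the filter, 5.85% were higher and 5.52% lower. The median log2 ratio of these 9 lysosomal carriers was -0.15, beside 0.013 over all genes. The lowest were *Slc38a7* (-0.42), which exports glutamine, *Slc38a9* (-0.40), the arginine sensor of mTORC1, and *Slc36a1* (-0.38). *Slc38a9* lay below 0 at each of 7 probe sets, from -0.90, which is past 1.5-fold, to -0.0052. The highest was *Ctns*, the cystine carrier, at 0.25, followed by *Mfsd12* at 0.08 and *Slc15a3* at 0.07.

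The list of the ATF4 programme, which includes *Atf4* itself, had 19 measured genes. ATF4 drives this programme when amino acids are short, and it is also known to raise several of the carriers described. Of the 19, 4 were lower by 1.5-fold or more and none higher, beside 5.52% lower and 5.85% higher of all genes above the filter. The median log2 ratio was -0.21, beside 0.013 over all genes, and 14 of 19 lay below 0, beside 48.1% of all genes. With only probe sets that have no suffix, 2 of 14 were lower, *Cth* and *Ddit3*. Those past 1.5-fold were *Cth*, which makes cysteine (-0.88), the transcription factors *Ddit3* (-0.74) and *Atf5* (-0.64), and the pseudokinase *Trib3* (-0.60). *Atf4* itself had 2647 in *Flcn* knockdown cells and 3065 in control cells, a log2 ratio of -0.21. The highest were *Stc2* (0.29), *Chac1* (0.27) and *Atf3* (0.22). The carriers *Slc3a2*, *Slc7a5*, *Slc7a1* and *Slc38a2*, known targets of this programme, had the log2 ratios of -0.11, -0.23, -0.29 and -0.17 given above. Those of *Slc3a2* and *Slc38a2* lie within the spread between probe sets. *Slc7a1* and *Slc38a2* also had probe sets above 0, at 0.01 and 0.42. A link of these carriers to ATF4 was not tested.

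**Figure D4:**
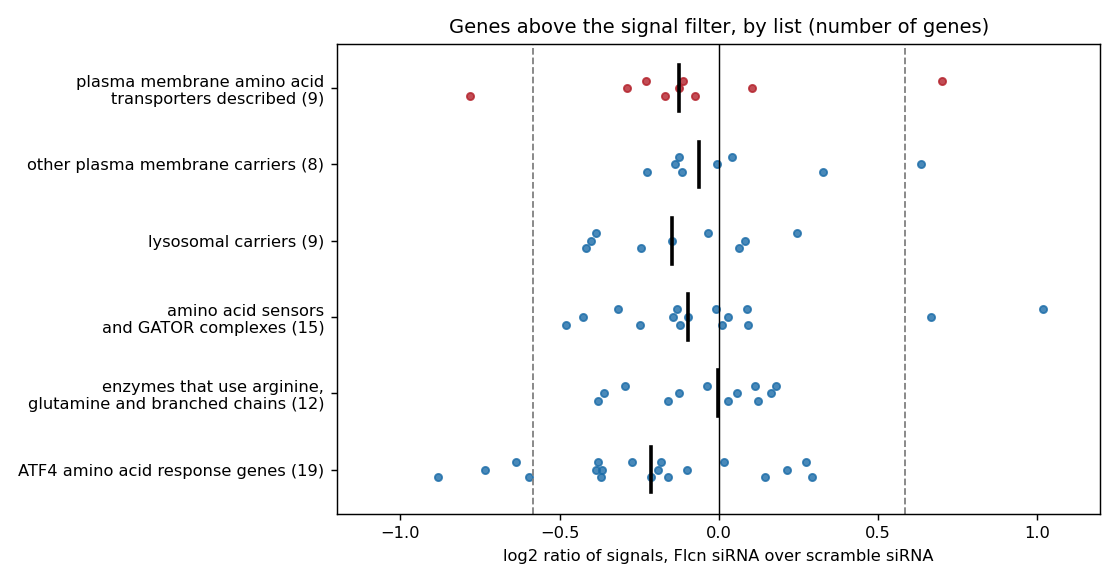
Log2 ratio, *Flcn* siRNA over scramble siRNA, for each gene above the signal filter in the carriers described (red) and in 5 related lists (blue), with the number of genes in parentheses. Black bars are medians and dashed lines mark 1.5-fold; the median of the carriers is -0.12 and that of the ATF4 genes -0.21.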

How the data were processed

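The authors transfected RAW264.7 cells with *Flcn* or scramble siRNA and processed 1 Mouse Genome 430 2.0 array per condition with GCOS 1.0. The deposited values are linear signal intensities per probe set. No source used here gives the scaling settings. The trimmed mean signal (2% left out at either end) is 100.0 on both arrays.

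Of 45101 probe sets, 34958 name 1 gene in the platform annotation, 932 name several and 9211 are not listed, and 64 are controls. Symbols were updated through Entrez IDs in RefSeq GRCm38.p6, which matched 34754 of them. Only probe sets with 1 gene were used. Signals below the median of their array were set to that median, and ratios were formed as *Flcn* siRNA over scramble siRNA. The probe set brightest by geometric mean represented the gene, which was called higher or lower where the ratio reached 1.5-fold. A single array per condition allows no p-value and limits the precision. The carriers were named at every probe set. Of each other list the 3 highest and the 3 lowest measured genes and those past 1.5-fold were named. Carriers and lists were chosen with earlier results of these data known. The alternatives were 2 other scalings, 2 other choices of probe set, 2 other floors and 2 other filters. The functions were tested on simulated data. Scripts ran in Python 3.11.15 with scipy 1.17.1, pandas 2.3.3, numpy 2.4.6 and, for plots, matplotlib 3.10.9.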

Additional observations from a re-analysis of the deposited data

How the results depend on the processing

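The carriers' ratios, counts and median and the counts over all genes were recomputed under 8 alternatives, of which one gave no value for *Slc7a7* and *Slc3a2*. The same was done, as a choice made after seeing the data, for the counts and medians of the 5 related lists and for their genes past 1.5-fold. The marker sums and motif counts were not recomputed. When the log2 ratios of all probe sets of a gene were averaged, 0 carriers passed 1.5-fold upward and 0 downward, since the second probe sets of *Slc7a6* and *Slc7a7* gave smaller ratios. With only probe sets that have no suffix, *Slc7a6* was again higher and 0 carriers were lower, because *Slc7a7* and *Slc3a2* have no such probe set. Of the 7 carriers then measured, 4 lay below 0 and 3 above, in place of 7 of 9 below. Under that choice *Slc38a1* had a log2 ratio of 0.30, and with averaged probe sets it had 0.11, in place of -0.08, while *Slc1a5* had -0.07 with averaged probe sets, in place of 0.11. Under the other 6 alternatives *Slc7a6* was the carrier higher and *Slc7a7* the carrier lower. Over the alternatives *Slc7a6* ranged from 0.41 to 0.70 and *Slc7a7* from -0.87 to -0.56. With the filter at the 75th percentile, 214 genes passed 1.5-fold upward and 268 downward, in place of 602 and 568, as fewer genes pass the filter, and 44.4% of these genes were higher. With median scaling 34.1% of the genes past 1.5-fold were higher, in place of 51.5%. Of the ATF4 genes, 2 were lower with only probe sets that have no suffix, where 14 are measured, and 4 under the other alternatives. *Nprl3* alone of the GATOR genes was higher (1) with median scaling and with averaged probe sets, and 0 were with the higher filter, which *Nprl3* and *Depdc5* do not pass. Of the other plasma membrane carriers 0 were higher with either other scaling or the higher filter. No paired analysis was possible because each condition has 1 array.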

Other observations

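Sensors that report cytosolic amino acids to mTORC1, and the GATOR complexes they act on, had 15 of 16 genes above the signal filter, with a median log2 ratio of -0.10. The GATOR1 subunits *Nprl3* and *Depdc5* were higher by 1.5-fold or more in *Flcn* knockdown cells, which makes 2 of 15, beside 5.85% of all genes above the filter. *Nprl3* had 109 in *Flcn* knockdown cells and 53.9 in control cells, a log2 ratio of 1.02 at its only probe set above the filter. *Depdc5* had weak signals of 40.8 in *Flcn* knockdown cells and 25.7 in control cells, a log2 ratio of 0.67. Its probe sets ranged from -0.59, which is past 1.5-fold lower, to 0.67, and gave 0.12 when averaged. No direction can therefore be given for *Depdc5*. The third GATOR1 subunit, *Nprl2*, had -0.12. The lowest were the arginine sensor *Castor1* (-0.43), its relative *Castor2* (-0.48, with 0.48 at its other probe set) and *Kptn* (-0.32), and *Seh1l* (0.09) followed *Depdc5* from the top. The leucine sensor *Sesn2* had 119 in *Flcn* knockdown cells and 130 in control cells.

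Of 16 enzymes of arginine, glutamine or branched-chain amino acid metabolism, 12 lay above the filter and none passed 1.5-fold at the probe set used. Of all genes above the filter, 5.85% were higher and 5.52% lower. The median log2 ratio of the enzymes was -0.0032, beside 0.013 over all genes. *Arg1*, *Arg2* and *Nos2*, which consume arginine in activated macrophages, and *Ass1*, which acts in its regeneration, lay under the filter, as *Slc7a2* did. The lowest were *Gpt2* (-0.38), *Bcat1* (-0.36) and *Bcat2* (-0.29), and the highest *Odc1* (0.18), which makes putrescine from ornithine, *Bckdhb* (0.16) and *Asl* (0.12). The probe sets of *Odc1* ranged from 0.17 to 0.97, so whether it passes 1.5-fold depends on the probe set.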
